A study of Mus musculus with 10 samples.

Results

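Endothelial cells line the blood vessels, the capillaries and the inner face of the heart, and 32 gene symbols known from these cells were followed in mouse myocardium. Transcript identifiers of the deposited table were mapped to gene symbols, values were summed per symbol, and the 32 symbols were read off among 11777 genes. A transcript was listed for 31 of the 32, with 76 listed transcripts in all. No transcript was listed for the symbol Npr3l, which is also not in the annotation used, so it has no value here. Messenger RNA of myocardium from C57BL/6 mice was sequenced in 10 libraries. In 5 of them, numbered 217, 227, 231, 240 and 241, the genotype label was NPRA-/-, a deletion of natriuretic peptide receptor A that the series describes as specific to the myocardium. The other 5, numbered 228, 230, 242, 243 and 255, were labelled NPRA+/+ and stand for littermates with the receptor. No treatment is named for either group, and the sources used here do not give the age, the sex or the Cre line behind the deletion.

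Endothelial cells hold each other through junction proteins such as VE-cadherin, and they read growth signals through receptors for VEGF, the angiopoietins, Notch ligands and BMP9. In the heart muscle the capillary endothelium also passes fatty acids from the blood to the cardiomyocytes and releases nitric oxide and endothelin, which set vessel tone. Transcription factors of the ETS family, ERG and ETS1 among them, bind sites with a GGAA core in many endothelial genes.

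Sequences of 2 kinds are shown. The first, given because Erg and Ets1 are among the genes, are stretches just before the start of 3 receptor genes (mouse build GRCm38, RefSeq promoter table). Each match to AGGAAG, a longer form of the GGAA core, or to its reverse complement CTTCCT is in capitals. Eng and Flt1 held 2 matches to this form each, and Kdr held none. GGAA alone was not marked, and it occurs in all 3 stretches.
Eng, chr2:32646345-32646594, plus strand: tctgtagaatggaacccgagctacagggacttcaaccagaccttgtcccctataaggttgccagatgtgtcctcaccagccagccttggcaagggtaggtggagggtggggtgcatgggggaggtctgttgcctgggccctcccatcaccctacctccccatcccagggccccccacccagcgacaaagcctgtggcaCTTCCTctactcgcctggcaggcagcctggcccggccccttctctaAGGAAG
Flt1, chr5:147726012-147726261, minus strand: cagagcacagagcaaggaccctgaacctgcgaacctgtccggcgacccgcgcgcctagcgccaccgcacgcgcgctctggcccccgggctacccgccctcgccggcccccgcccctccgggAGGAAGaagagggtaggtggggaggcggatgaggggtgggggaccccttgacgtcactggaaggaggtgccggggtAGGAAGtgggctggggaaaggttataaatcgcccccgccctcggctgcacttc
Kdr, chr5:75978459-75978705, minus strand: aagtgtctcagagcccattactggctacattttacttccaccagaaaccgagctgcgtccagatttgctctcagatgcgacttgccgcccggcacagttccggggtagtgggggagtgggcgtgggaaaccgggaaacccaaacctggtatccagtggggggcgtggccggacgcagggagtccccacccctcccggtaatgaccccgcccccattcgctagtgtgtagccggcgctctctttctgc
The second, given beside the isoform results below, are coding stretches held by only 1 of 2 listed transcripts of a gene. The transcript values themselves are per whole transcript, and these transcripts differ elsewhere too. Exon 25 of 26 of Nos3-201 is missing from Nos3-202, and the last coding bases of the shorter Flt1-203 are not in Flt1-202.
Nos3 exon 25, chr5:24383530-24383724, plus strand: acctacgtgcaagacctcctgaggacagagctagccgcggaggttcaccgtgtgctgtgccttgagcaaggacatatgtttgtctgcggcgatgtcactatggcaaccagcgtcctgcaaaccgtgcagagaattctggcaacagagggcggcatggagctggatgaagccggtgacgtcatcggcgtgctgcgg
Flt1-203 coding end, chr5:147639133-147639224, minus strand: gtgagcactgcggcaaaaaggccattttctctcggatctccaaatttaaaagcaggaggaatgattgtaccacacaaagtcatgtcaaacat
A RefSeq window from 250 bases before to 50 after a start was found for 17 of the 32 genes, in 23 windows. AGGAAG was in a window of 12 of the 17 (70.6%): Aqp1, Cav1, Egfl7, Emcn, Eng, Erg, Flt1, Ly6c1, Nrp1, Rgcc, Robo4 and Tie1. Over all 27025 genes with a window, 38.4% held it. The form CGGAAG was in 1 of the 17 (5.88%, against 18.8% of all genes). The longer ACAGGAA, which overlaps AGGAAG by 5 letters, was in 3 (17.6%, against 9.73%). These shares are descriptions of letters on both strands and say nothing of binding.

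The 31 genes spanned a wide range of levels. Levels were taken as FPKM, fragments normalised to transcript length and library size, although the deposited table does not name its unit. On that reading they can be set beside each other across genes of different length. Fabp4, a fatty acid binding protein, had the highest mean over the 10 libraries, at 724 FPKM, followed by the water channel gene Aqp1 at 98.7 FPKM and by Cdh5 at 89.4 FPKM. Edn1, the gene of the vasoconstrictor endothelin-1, was lowest at 1.99 FPKM, below Erg at 5.27 FPKM, Vwf at 5.79 FPKM and Notch1 at 6.16 FPKM. The markers that define endothelium were present in every library: Pecam1 was never below 44.0 FPKM and Cdh5 never below 68.9 FPKM. The coefficient of variation over the 10 libraries had a median of 12.3%. It was lowest in Nrp1 and Aqp1, at 4.88% each, and highest in Erg, at 47.5%, with 9 genes under 10% and 8 over 20%.

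**Figure D1:**
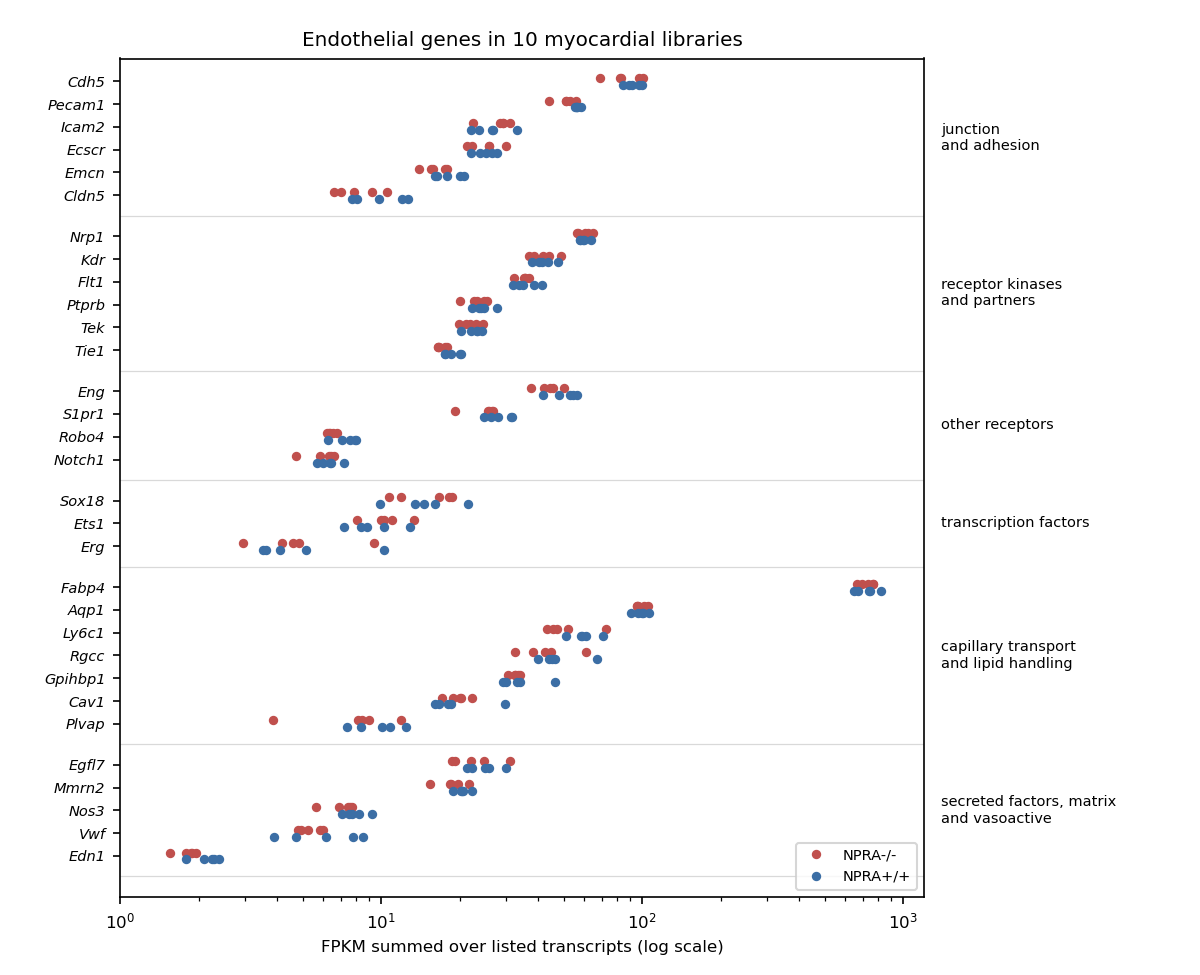
Level of the 31 endothelial genes in each of the 10 libraries, in FPKM summed over listed transcripts on a log axis, grouped by role. Each point is 1 library (red NPRA-/-, blue NPRA+/+). The groups overlap in every gene, and Fabp4 stands at 648 to 823 FPKM, far to the right of all others.

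Library sums lay between 430059 and 453122 FPKM, and how deeply each was sequenced is not known. The deleted gene, Npr1, stood between 4.12 and 5.20 FPKM in the libraries labelled NPRA-/- and between 4.30 and 5.05 FPKM in those labelled NPRA+/+, so its mRNA did not separate the labels. Directions below rest on the labels and are given for NPRA-/- against NPRA+/+. Myl7, which encodes the light chain of atrial myosin, was at 12.7, 81.8 and 140.1 FPKM in libraries 231, 227 and 217 and at 26.9, 73.2 and 75.4 FPKM in libraries 243, 242 and 230. In libraries 240, 241, 228 and 255 it was between 0 and 0.586 FPKM. This atrial marker thus differed between libraries of the same genotype, and counts are also given within the 6 libraries with Myl7 at 10 FPKM or more (3 of each genotype) and within the other 4 (2 of each). Each library has its own number in the labels, which do not say whether numbers are animals, so p-values measure the spread between these libraries.

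None of the 31 endothelial genes differed between genotypes at an adjusted p under 0.05 (limma, Benjamini-Hochberg over 10764 genes; lowest adjusted p = 0.893), where the share of all genes tested was 0.00929%. Most of them leaned the same way. From here on, lower and higher give the sign of the difference in mean log2(FPKM + 1), called or not. By that sign 25 were lower in NPRA-/- and 6 higher, and 60.6% of all genes tested were also lower. The median log2 difference of the 31 was -0.11, a difference in log2(FPKM + 1), beside -0.03 over all genes tested. In 3 genes, Pecam1, Tie1 and Robo4, the unadjusted limma p was under 0.05, all lower, where 5.52% of all genes passed that threshold, 4.13% lower and 1.38% higher. In 0 of the 31 were the libraries of the genotypes separate, where 1.08% of all genes were (0.836% lower and 0.242% higher).

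The lean depended on which libraries entered. Without library 217, 21 of the 31 were lower, the median was -0.06 (-0.03 over all genes) and 0 had an unadjusted p under 0.05, which also held without library 231. In the 6 libraries with Myl7 at 10 FPKM or more, 26 were lower (median -0.15, all genes -0.02), beside 55.2% of all genes. Of the 31, 7 had an unadjusted limma p under 0.05 there (lowest adjusted p = 0.617). Of the 10814 genes tested in that set, 458 passed this threshold as lower and 261 as higher. In the 4 libraries with Myl7 under 10 FPKM, 13 were lower and 18 higher (median 0.03, all genes -0.05), beside 60.2% of all genes lower. Whether atrial tissue had a part in the lean was not tested. The scaling moved the counts of lower genes, both among the 31 and over all genes. With each library rescaled to the same sum, 27 were lower (64.8% of all genes). With median-of-ratios scaling 21 were (49.5%), as many as without library 217, and with quantile normalization 23 (50.1%). The medians were -0.12, -0.07 and -0.09 in this order, beside -0.04, 0.0014 and -0.00021 over all genes. The 3 unadjusted calls became 4 with the same sum and 0 with the other 2 scalings. No endothelial gene was called in any of these settings, so a fall in endothelial RNA is not shown. In bulk tissue, the number of endothelial cells and the RNA per cell cannot be told apart. Values normalised to library size also depend on the RNA of other cells.

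**Figure D2:**
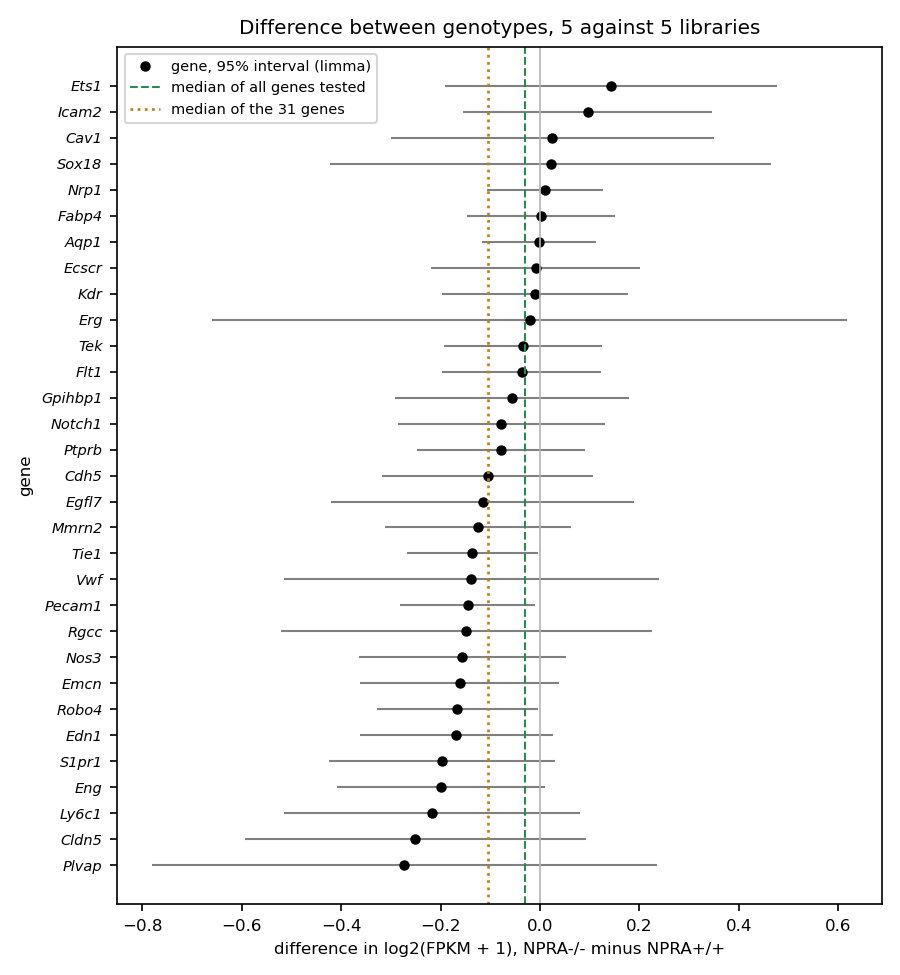
Difference in log2(FPKM + 1), NPRA-/- minus NPRA+/+, of each of the 31 genes, as the limma estimate (point) with its 95% interval (line), sorted by size. The green dashed line is the median of all genes tested (-0.03) and the orange dotted line the median of the 31 genes (-0.11). The intervals of Pecam1, Tie1 and Robo4 end just below 0, and all others cross it.

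Junction and adhesion genes were lower in 5 of 6, with a median log2 difference of -0.13 (-0.06 without library 217, with 4 of 6 lower). Within the libraries with Myl7 under 10 FPKM, 4 of 6 were lower. Pecam1 encodes the adhesion molecule CD31 at endothelial contacts (chromosome 11, 106654217 to 106750628, minus strand). It was at 44.0, 53.0, 51.0, 55.9 and 51.1 FPKM in libraries 217, 227, 231, 240 and 241 and at 55.7, 56.1, 55.2, 58.4 and 56.5 FPKM in libraries 228, 230, 242, 243 and 255. All 5 libraries labelled NPRA-/- lay under the mean of the other group, but library 240 reached into its range. The log2 difference was -0.15 (SE 0.06, 95% interval -0.28 to -0.01; limma adjusted p = 0.893), and -0.09 without library 217. Cdh5, which encodes VE-cadherin, the main adhesion protein of endothelial junctions (chromosome 8, 104101625 to 104144511), was at 68.9, 82.5, 83.1, 100.4 and 97.3 FPKM in NPRA-/- and at 84.2, 91.5, 89.1, 97.3 and 100.03 FPKM in NPRA+/+, in the same order of libraries. The lowest 3 values were in NPRA-/-, and the highest value was too. Its log2 difference of -0.11 (interval -0.32 to 0.11) became -0.03 without library 217.

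Emcn encodes endomucin, a mucin-like protein of capillary and venous endothelium (chromosome 3, 137341067 to 137432185). It was at 14.0, 15.7, 17.6, 15.6 and 17.9 FPKM in NPRA-/- and at 19.99, 17.9, 16.3, 20.7 and 16.1 FPKM in NPRA+/+. The 3 lowest of the 10 libraries were NPRA-/- and the 2 highest NPRA+/+, with overlap between. The difference was -0.16 (SE 0.09, interval -0.36 to 0.04), and 0.02 when only the most abundant transcript was used. Cldn5, which encodes the tight junction protein claudin-5, had a difference of -0.25 (interval -0.59 to 0.09), with 6.62 to 10.5 FPKM in NPRA-/- and 7.71 to 12.6 FPKM in NPRA+/+. Ecscr, a regulator of endothelial migration, was at 25.1 ± 3.44 against 25.2 ± 2.21 FPKM, with a difference of -0.01 (interval -0.22 to 0.20) that was above 0 with median-of-ratios scaling and quantile normalization. Icam2, a ligand of leukocyte integrins, was the higher one of the group, at 28.2 ± 3.30 against 26.4 ± 4.23 FPKM (SD, n = 5 each; difference 0.10, interval -0.15 to 0.35, and 0.04 without library 243).

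**Figure D3:**
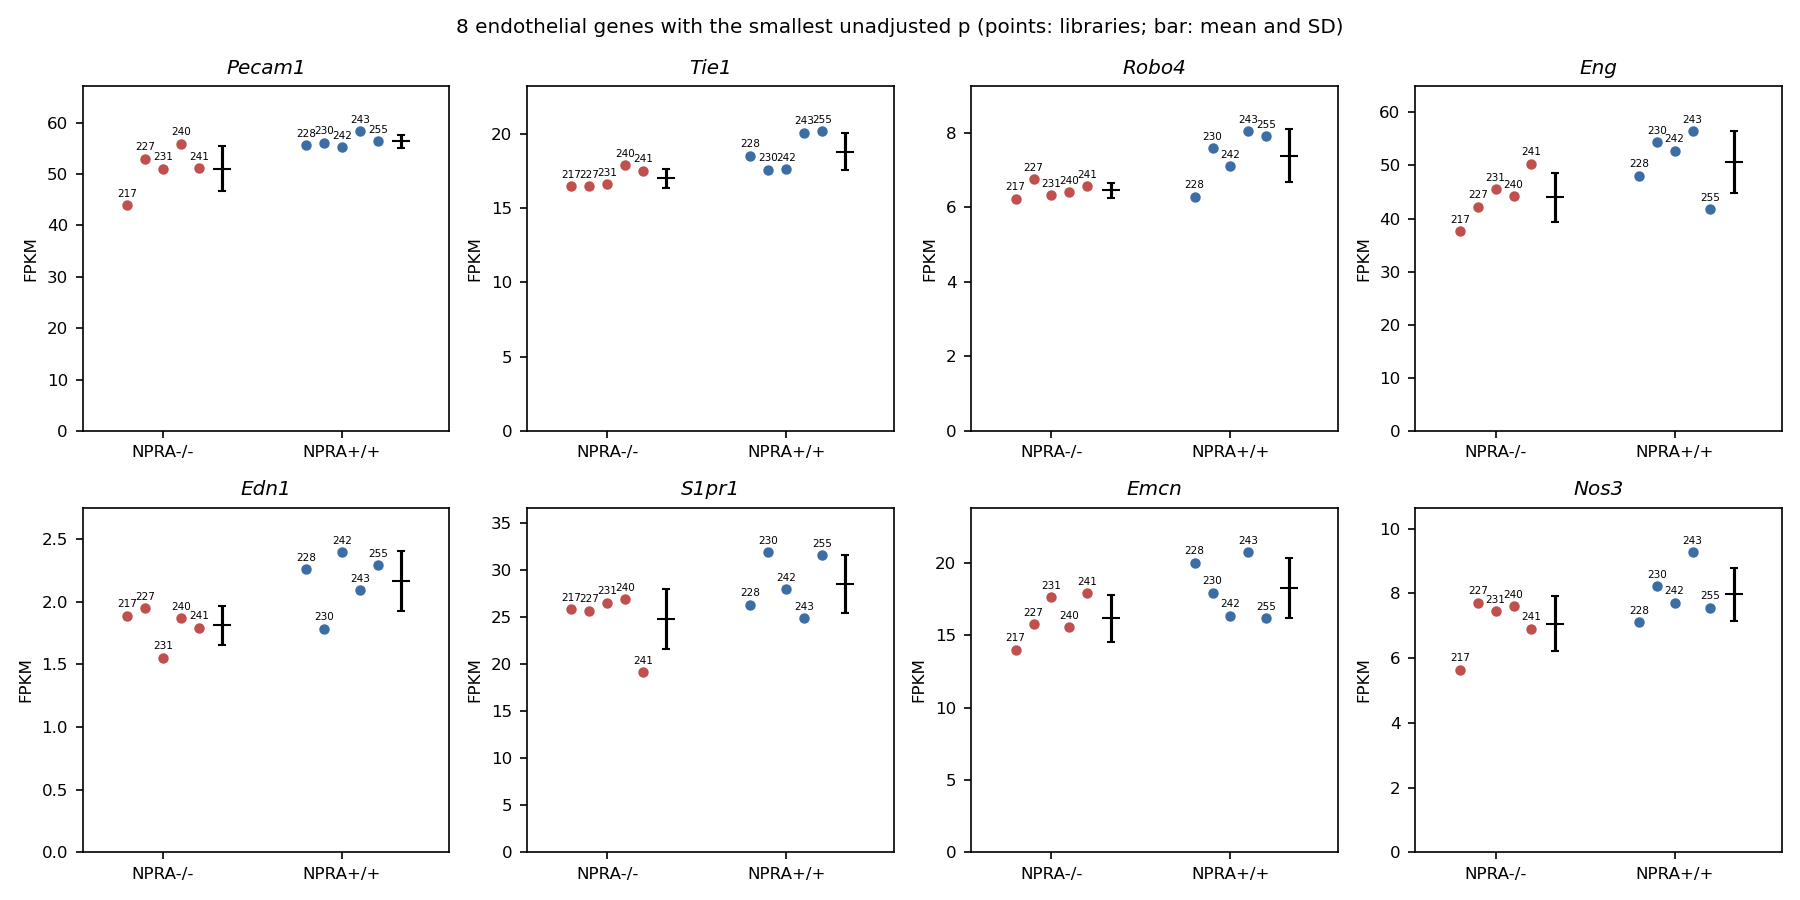
FPKM of the 8 endothelial genes with the smallest unadjusted p in each library (points, labelled by library number), with the mean and SD of each genotype (bars, n = 5 each); axes start at 0. In each panel some libraries of the genotypes overlap, as library 240 does in Pecam1 and library 228 in Robo4.

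Receptor kinases and their partners differed little between genotypes, with a median log2 difference of -0.04 and 5 of 6 lower (3 of 6 without library 217). Within the libraries with Myl7 under 10 FPKM, 2 of 6 were lower. Nrp1, which encodes neuropilin-1, a co-receptor of VEGF and semaphorins (chromosome 8, 128358604 to 128503363), was at 56.3, 56.6, 60.5, 61.9 and 65.1 FPKM in libraries 217, 227, 231, 240 and 241 and at 57.9, 63.5, 57.7, 59.4 and 59.8 FPKM in libraries 228, 230, 242, 243 and 255. The groups lay on top of each other, and the interval of the difference was -0.11 to 0.13 around an estimate of 0.01 that went below 0 with the same sum. Kdr, the main signalling receptor of VEGF-A, stood at 42.0 ± 4.76 against 42.2 ± 3.74 FPKM (difference -0.01, interval -0.20 to 0.18, above 0 with median-of-ratios scaling and quantile normalization). Flt1, the receptor VEGFR1 that binds VEGF with high affinity, stood at 35.0 ± 1.74 against 36.1 ± 3.72 FPKM (interval -0.20 to 0.12).

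Tie1, an orphan receptor that works with the angiopoietin receptor (chromosome 4, 118471191 to 118490061, minus strand), was at 16.5, 16.5, 16.6, 17.9 and 17.5 FPKM in NPRA-/- and at 18.5, 17.6, 17.6, 20.1 and 20.2 FPKM in NPRA+/+. The 3 lowest libraries were NPRA-/- and the 3 highest NPRA+/+, while 2 libraries of each group lay between 17.5 and 17.9 FPKM. Its difference was -0.14 (SE 0.06, interval -0.27 to -0.0043; limma adjusted p = 0.893), and it ranged from -0.16 to -0.11 when 1 library was left out. Tek, the angiopoietin receptor itself, was at 22.1 ± 1.85 against 22.7 ± 1.599 FPKM, a difference of -0.03 (interval -0.19 to 0.12). Ptprb, the phosphatase VE-PTP that dephosphorylates it, was at 23.2 ± 2.07 against 24.6 ± 1.99 FPKM, a difference of -0.08 (interval -0.25 to 0.09) that was -0.03 without library 217 and -0.04 without library 230. A change of more than 0.26 in log2 in either direction lay outside the 95% interval in 8 of the 31 genes, 5 of them in this group: Nrp1, Kdr, Flt1, Tek and Ptprb.

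The 4 other receptors were all lower, with a median of -0.18 (-0.15 without library 217); within the libraries with Myl7 under 10 FPKM, 2 of 4 were. Eng encodes endoglin, a co-receptor for BMP9 and TGF-beta on endothelium (chromosome 2, 32646595 to 32682669). It was at 37.6, 42.2, 45.5, 44.2 and 50.3 FPKM in NPRA-/- and at 48.1, 54.4, 52.8, 56.5 and 41.8 FPKM in NPRA+/+. Library 255 was the second lowest of all 10, and the other 4 of its group were among the 5 highest. The difference was -0.20 (SE 0.09, interval -0.41 to 0.01), from -0.27 without library 255 to -0.15 without library 217. S1pr1, the main endothelial receptor of sphingosine-1-phosphate (chromosome 3, 115710433 to 115715072, minus strand), was at 25.8, 25.7, 26.5, 26.9 and 19.1 FPKM in NPRA-/- and at 26.3, 31.8, 28.0, 24.9 and 31.5 FPKM in NPRA+/+. The low value was library 241, without which the difference of -0.20 (interval -0.42 to 0.03) became -0.11.

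Robo4, a receptor that stabilises vessels (chromosome 9, 37401897 to 37415115), was at 6.23, 6.75, 6.33, 6.39 and 6.56 FPKM in NPRA-/- and at 6.28, 7.58, 7.09, 8.04 and 7.91 FPKM in NPRA+/+. The NPRA-/- values were tight, and 4 of the 5 NPRA+/+ values lay above all of them, with library 228 as the exception. Its difference was -0.17 (SE 0.07, interval -0.33 to -0.0037; limma adjusted p = 0.893), and -0.22 without library 228. Notch1, a receptor of arterial identity and vessel sprouting, was at 5.97 ± 0.753 against 6.34 ± 0.594 FPKM, with a difference of -0.08 that was -0.01 without library 217.

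The 3 transcription factor genes all had a coefficient of variation over 20%. Sox18, which acts in vessel development (chromosome 2, 181669836 to 181671640, minus strand), was at 11.96, 18.2, 10.7, 16.7 and 18.7 FPKM in NPRA-/- and at 16.0, 9.90, 13.5, 21.6 and 14.6 FPKM in NPRA+/+. The lowest and the highest library were both NPRA+/+, and the interval of the difference, -0.42 to 0.46, was wide. Erg, which keeps up the endothelial state, was at 9.36 FPKM in library 231 and 10.3 FPKM in library 242, 1 of each genotype, and at 2.97 to 5.15 FPKM in the other 8. Its interval was the widest on the upper side, -0.66 to 0.62. Ets1 had the most positive difference of the 31 and no call, at 10.6 ± 1.93 against 9.52 ± 2.19 FPKM (difference 0.14, interval -0.19 to 0.48; limma adjusted p = 0.928), which was 0.06 without library 240 or 242 and 0.25 without library 230. Of the 3, 1 was lower and 2 higher, and 0 were lower within the libraries with Myl7 under 10 FPKM.

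Capillary transport and lipid handling genes were lower in 5 of 7, with a median of -0.06, and in 3 of 7 within the libraries with Myl7 under 10 FPKM. Fabp4, which binds fatty acids in capillary endothelium and is also abundant in adipocytes (chromosome 3, 10204088 to 10208576, minus strand), was at 666, 693, 765, 763 and 731 FPKM in NPRA-/- and at 648, 668, 745, 737 and 823 FPKM in NPRA+/+. The groups covered the same range, and the difference was 0.0020 (interval -0.15 to 0.15), below 0 with the same sum and with quantile normalization. Aqp1 had the same spread in both groups, 98.6 ± 4.65 against 98.7 ± 5.52 FPKM (interval -0.12 to 0.11). Gpihbp1, which carries lipoprotein lipase to the capillary lumen, lay at 30.7 to 34.1 FPKM in NPRA-/- and at 29.3 to 33.9 FPKM in 4 libraries labelled NPRA+/+, with library 255 at 46.2 FPKM. Its difference went from -0.06 to 0.05 without library 255.

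Plvap, which forms the diaphragms of endothelial caveolae and is strong in endocardium, had the most negative difference of the 31 and no call, at 8.28 ± 2.89 against 9.84 ± 2.01 FPKM (difference -0.27, interval -0.78 to 0.23; limma adjusted p = 0.920). Library 217, at 3.84 FPKM, stood below all others (7.39 to 12.5 FPKM), and without it the difference was -0.06. Ly6c1, a surface antigen of mouse capillary endothelium and monocytes, was at 52.1 ± 12.1 against 59.9 ± 7.05 FPKM (difference -0.22), and without library 241 its difference was -0.34. It had 7 listed transcripts and closely similar neighbour genes, so its reads may be shared with them and its values are uncertain. Rgcc, a regulator of the cell cycle that marks heart capillaries, ranged from 32.7 to 67.1 FPKM and its highest libraries were 217 and 255, 1 of each genotype. Its difference of -0.15 was -0.27 without library 217, -0.05 without library 241 and -0.03 without library 255. Cav1, the coat protein of caveolae, was at 29.8 FPKM in library 230 and at 16.1 to 22.4 FPKM in the other 9.

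Secreted, matrix and vasoactive genes were lower in 5 of 5, with a median of -0.14 (-0.10 without library 217); within the libraries with Myl7 under 10 FPKM, 2 of 5 were. Egfl7, a secreted factor of vessel tube formation (chromosome 2, 26580014 to 26593120), was at 22.1, 18.7, 19.2, 31.3 and 24.7 FPKM in NPRA-/- and at 21.3, 30.0, 22.4, 25.9 and 25.1 FPKM in NPRA+/+. The 2 lowest libraries and the highest were NPRA-/- (difference -0.12, interval -0.42 to 0.19), and the difference was -0.05 without library 227 or 230, -0.06 without library 231 and -0.23 without library 240. Nos3, the endothelial nitric oxide synthase (chromosome 5, 24364810 to 24384474), was at 5.65, 7.71, 7.45, 7.61 and 6.91 FPKM in NPRA-/- and at 7.11, 8.23, 7.72, 9.27 and 7.56 FPKM in NPRA+/+. The lowest 2 libraries were NPRA-/- and the highest 2 NPRA+/+, and the difference of -0.16 (SE 0.09, interval -0.37 to 0.05) was -0.09 without library 217.

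Edn1 (chromosome 13, 42301476 to 42307990) was at 1.89, 1.95, 1.55, 1.87 and 1.79 FPKM in NPRA-/- and at 2.26, 1.78, 2.39, 2.09 and 2.29 FPKM in NPRA+/+. In NPRA+/+, 4 of the 5 libraries lay above all of NPRA-/-, and library 230 was among the lowest. The difference was -0.17 (SE 0.09, interval -0.36 to 0.03). At this level the log2(FPKM + 1) scale understates fold changes. Shared exon bases with a gene on the opposite strand were also found for Ecscr, Edn1, Egfl7, Eng and Notch1, with 35 to 1068 bases per pair. Their values carry the same uncertainty as those of Nos3 below. On its own strand Egfl7 shares 264 exon bases with the protein-coding Gm20532 and 73 with Mir126a, and Nrp1 shares 80 with Mir1903. Strand cannot tell such reads apart. Vwf, the platelet-binding von Willebrand factor, was tight in NPRA-/- (4.82 to 6.01 FPKM) and wide in NPRA+/+ (3.87 to 8.53 FPKM), and its difference of -0.14 was -0.03 without library 243, -0.06 without library 230 and -0.27 without library 228. Mmrn2, an endothelial matrix protein, was at 18.8 ± 2.32 against 20.5 ± 1.25 FPKM, and its difference of -0.12 was -0.06 without library 217.

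Low and high values were unevenly spread over the libraries. Library 217 had the lowest value in 15 of the 31 genes and was below the mean of all libraries in 25, with a median deviation of -0.15 in log2(FPKM + 1), beside -0.02 over all genes. It had the highest FPKM sum of all and the highest sum over 14 cardiomyocyte markers (39449 FPKM, against 34744 to 37754 in the other 9). The highest value of a gene was in library 243 for 8 genes, in 230 for 6 and in 255 for 5, all NPRA+/+. Library 240, labelled NPRA-/-, had 10 of the 31 below the mean of all libraries, as few as library 230.

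**Figure D4:**
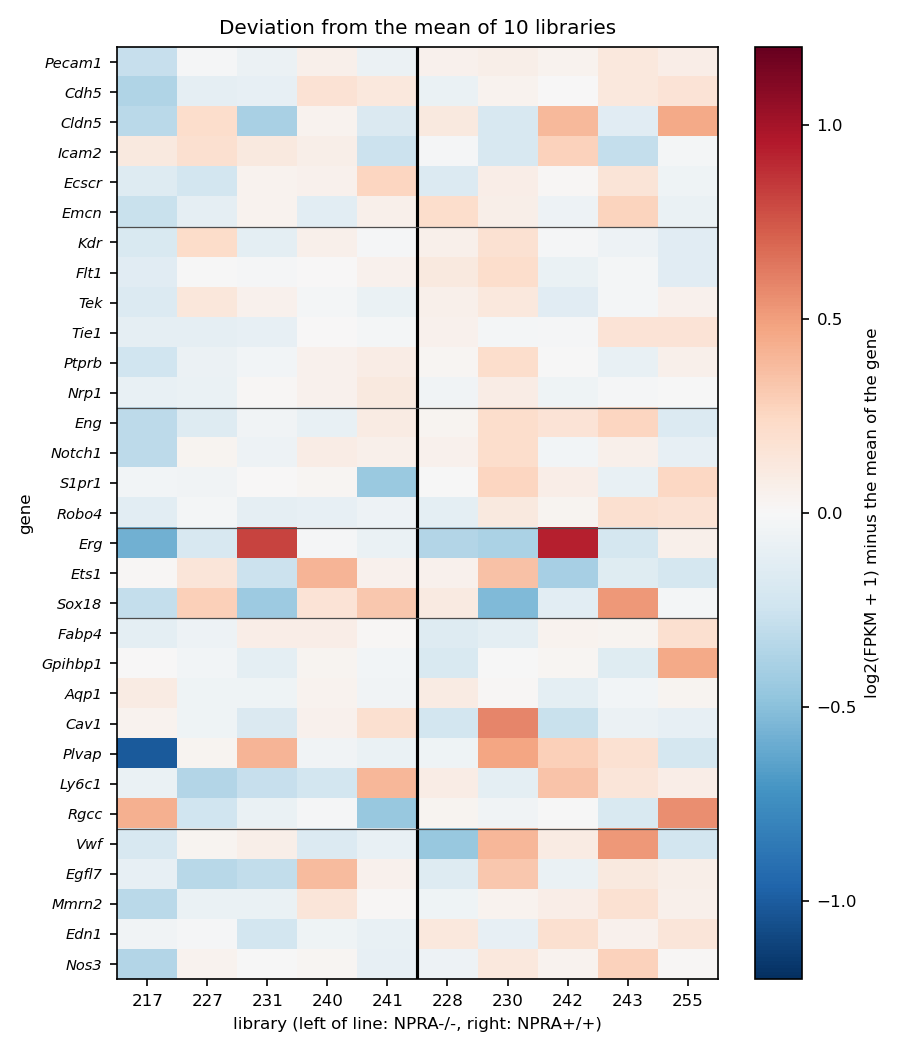
Deviation of each endothelial gene (rows, in order of role) from its own mean over the 10 libraries (columns), in log2(FPKM + 1); blue is below and red above the mean. The vertical line parts NPRA-/- (left) from NPRA+/+ (right). The column of library 217 is blue in 25 of 31 rows, and single red cells mark Erg in libraries 231 and 242.

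Listed transcripts of the same genes were compared to see whether single isoforms moved apart. Of the 76, 61 entered the test, and 0 passed the adjusted threshold (limma; lowest adjusted p = 0.893), where 0.0283% of 17641 transcripts did. At an unadjusted p under 0.05 there were 4 (5.5% over all transcripts): Eng-202, Ly6c1-201 and Ly6c1-204 were lower and Cav1-206 was higher. Eng-202 was at 7.33, 11.4, 12.6, 12.7 and 16.1 FPKM in NPRA-/- and at 15.6, 19.6, 16.9, 16.0 and 12.9 FPKM in NPRA+/+. Library 241 reached into the other group, and the difference was -0.43 (SE 0.18; limma adjusted p = 0.893), which was -0.28 without library 217.

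Several genes were made up of different transcripts from library to library, in both genotypes. Nos3-202 lacks the 195 coding bases of exon 25 shown above, differs also in the rest of its coding length and encodes 1106 codons, where Nos3-201 encodes 1202. It made up 53.4%, 57.7%, 58.1% and 50.3% of Nos3 in libraries 217, 227, 228 and 230, and 1.89% to 5.55% in the other 6. Both genotypes had libraries of both kinds, 2 and 3 each. Exons of Nos3 share 294 bases with Atg9b and 1040 with Gm15587 on the opposite strand. The libraries were strand-specific per the labels' protocols. The sources used here do not say whether reads were assigned by strand, so values at this end of Nos3 are uncertain. Tie1-203 made up 5.20%, 10.4% and 7.59% of Tie1 in libraries 217, 242 and 243 and 30.6% to 47.4% in the other 7. Cav1-201 ranged from 0.11% to 52.8% of Cav1, and Cav1-205 from 18.5% to 74.9%. Erg-205 was listed at 0 in 8 libraries and at 1.87 and 1.303 FPKM in libraries 231 and 240. A value of 0 can be a failed estimate, and 11 of the 76 transcripts were at 0 in at least 1 library.

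The share that a transcript made up of its gene was separate between genotypes for 1 of 48 transcripts of the endothelial genes, beside 0.886% of 12194 transcripts of all genes. This was Ly6c1-202, which made up 54.9%, 52.6%, 52.8%, 54.4% and 55.2% of listed Ly6c1 in libraries 217, 227, 231, 240 and 241 and 48.8%, 49.6%, 48.4%, 50.5% and 40.7% in libraries 228, 230, 242, 243 and 255. All 5 shares in NPRA-/- lay above all 5 in NPRA+/+, with means of 54.0% ± 1.24 and 47.6% ± 3.94 (SD, n = 5 each). The level of Ly6c1-202 itself overlapped, at 28.2 ± 7.10 against 28.5 ± 4.19 FPKM (log2 difference -0.03). The higher share thus does not mean a higher level of this transcript. The uncertainty of Ly6c1 reads given above holds for these shares too.

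Flt1 has a soluble form that binds VEGF without signalling. Flt1-203 has 13 exons and 688 codons and ends its coding part in the stretch shown above, where Flt1-202 goes on to 30 exons and 1333 codons. It made up 40.5%, 31.1%, 31.9%, 40.8% and 25.7% of listed Flt1 in NPRA-/- and 42.4%, 37.1%, 32.6%, 32.9% and 41.4% in NPRA+/+. The groups overlapped throughout, with means of 34.0% ± 6.501 and 37.3% ± 4.60 (n = 5 each, SD). A two-sided exact permutation test gave p = 0.381, where the smallest p this design allows is 0.00794.

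**Figure D5:**
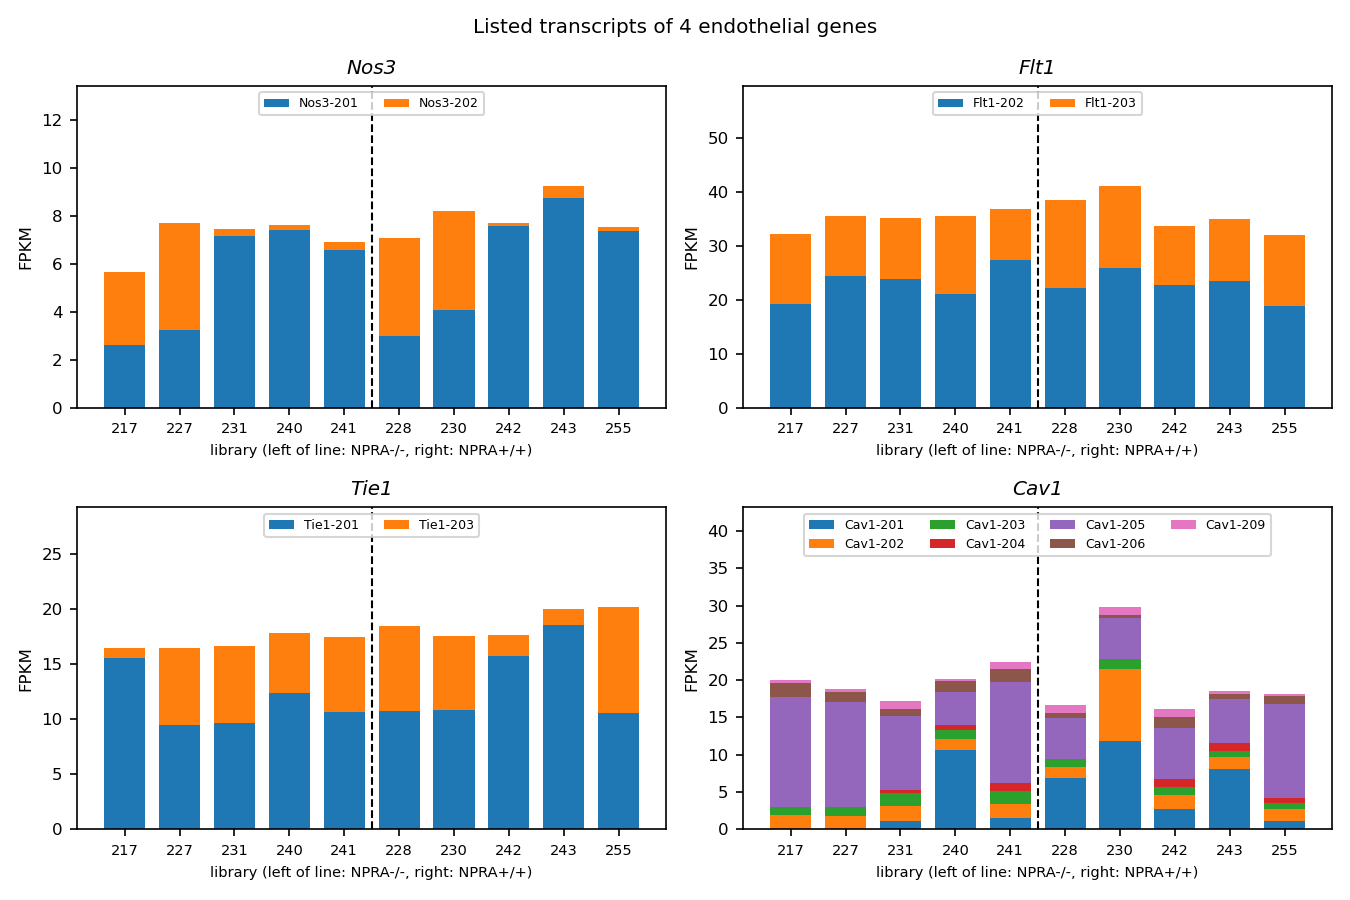
FPKM of the listed transcripts of Nos3, Flt1, Tie1 and Cav1 in each library, stacked so that the bar height is the sum of the gene. The dashed line parts NPRA-/- (left) from NPRA+/+ (right). Nos3-202 is large in libraries 217, 227, 228 and 230 and small in the other 6, on both sides of the line.

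Other vascular genes were read from 4 lists, and none of their members passed the adjusted threshold. In the list of ligands that act on vessels, which also held the enzyme gene Ece1, 13 of 21 tested genes were lower (median -0.02). Without library 217, 12 of 22 were (median -0.03), and within the libraries with Myl7 under 10 FPKM 11 of 21 were. Vegfa was at 80.0 ± 3.66 against 80.0 ± 8.11 FPKM. Of this list Ece1, the enzyme that makes active endothelin (28.0 ± 2.62 against 32.98 ± 3.03 FPKM; limma adjusted p = 0.867), and the Notch ligand gene Jag1 (2.63 ± 0.490 against 3.30 ± 0.485 FPKM) had the smallest p. Other vascular receptors were lower in 20 of 27 (median -0.08; 18 of 27 and -0.02 without library 217), with Ephb4, a receptor kinase of venous endothelium, at 9.44 ± 0.996 against 11.96 ± 1.68 FPKM, and the lipoprotein receptor gene Lrp1 at 9.30 ± 1.17 against 11.5 ± 1.90 FPKM. Within the libraries with Myl7 under 10 FPKM, 9 of these 27 receptors were lower.

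Other vascular transcription factors and their targets were lower in 25 of 30 (median -0.13, and 23 of 30 and -0.10 without library 217). Within the libraries with Myl7 under 10 FPKM, 21 of 31 tested were lower. Nr2f2, the venous identity factor COUP-TFII, was at 4.13, 4.87, 4.17, 4.90 and 4.36 FPKM in NPRA-/- and at 7.29, 5.85, 5.41, 5.71 and 5.36 FPKM in NPRA+/+. Here the genotypes did not overlap, and the difference was -0.33 (SE 0.09; limma adjusted p = 0.833), from -0.36 to -0.26 when 1 library was left out. Hdac7, which encodes a histone deacetylase of endothelium, did not overlap either, at 0.695 to 2.40 against 2.45 to 6.91 FPKM (limma adjusted p = 0.833). Other surface and transport genes were lower in 22 of 32 (median -0.06; 21 of 32 and -0.03 without library 217), and in 16 of 32 within the libraries with Myl7 under 10 FPKM. Here Tfpi, an inhibitor of coagulation, was at 15.4 to 22.7 against 23.3 to 45.8 FPKM and Spns2, which exports sphingosine-1-phosphate, was at 1.13 to 2.89 against 3.15 to 3.84 FPKM. These genes were picked from the lists for their small p, so the separation is a description, beside 0.836% of all genes that were separate and lower.

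Markers of vessel types and of neighbouring cells were read beside these values, and none was called. Arterial markers were lower in 7 of 9 (summed level 31.6 to 48.0 FPKM in NPRA-/- and 38.2 to 48.7 FPKM in NPRA+/+), venous in 4 of 5 tested of 8 (30.6 to 37.7 against 32.3 to 48.2 FPKM; Selp and Ackr1 not listed) and lymphatic in 4 of 6 of 7 (52.2 to 66.1 against 46.7 to 78.0 FPKM; Reln not listed). Endocardial markers were lower in 7 of 7 tested of 9, with a median of -0.23 (-0.11 without library 217), and summed to 38.9 to 68.2 FPKM in NPRA-/- and to 50.5 to 85.1 FPKM in NPRA+/+. Plvap and Vwf belong to that list as well as to the 31 genes, and Vwf is also a venous marker. So are Nr2f2 and Ephb4, given above from other lists. Library 217 was lowest in the endocardial sum too, with Npr3 at 1.19 FPKM against 3.13 to 5.63 FPKM elsewhere. In the libraries with Myl7 under 10 FPKM, 3 of 7 endocardial markers were lower, and so were 3 of 9 arterial (median 0.16), 2 of 5 venous (median 0.12) and 2 of 6 lymphatic markers (median 0.11).

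Among other cell types of the heart wall, markers of fibroblasts, macrophages and mural cells leaned the same way as the endothelial genes. Those of cardiomyocytes did not. Fibroblast markers were lower in 12 of 12 (median -0.24; 712 to 884 against 791 to 999 FPKM), macrophage markers in 12 of 12 (median -0.20; 226 to 248 against 253 to 293 FPKM) and mural cell markers in 11 of 12 (median -0.14, and -0.09 without library 217; 1092 to 1155 against 1080 to 1282 FPKM). Cardiomyocyte markers were higher in 12 of 14 (median 0.04; 34744 to 39449 against 35361 to 37142 FPKM). The unadjusted limma p was under 0.05 in 6 fibroblast, 7 macrophage and 2 mural cell markers, all lower, and in 0 cardiomyocyte markers. Beside this stood 3 of the 31 endothelial genes and 5.52% of all genes tested. Fibroblast and macrophage markers stayed at 12 of 12 lower without library 217 and in each set of libraries by Myl7. Mural cell markers were lower in 11 of 12 without library 217 and in 10 of 12 in each set. The endothelial genes were lower in 26 of 31 with Myl7 at 10 FPKM or more and in 13 of 31 below it. Library 217 is only in the first of these small sets, and the reason for the change was not tested. Atrial markers were lower in 4 of 7 tested of 9 (326 to 686 against 265 to 884 FPKM). Adipocyte markers, which bear on Fabp4, were lower in 6 of 6 tested of 9, also in each set by Myl7. They summed to 18.8 to 34.4 against 16.8 to 49.6 FPKM. The sum and Fabp4 were both highest in library 255 and both lowest in library 228. Between these the order differed, as library 240 had a sum of 18.8 with Fabp4 at 763 FPKM. Library 230 had a sum of 37.2 with Fabp4 at 668 FPKM. Cidea, at 15.6 to 25.3 FPKM, made up a large part of the sum. Adipoq, the gene of adiponectin, was at 0.119 to 2.22 FPKM, and Plin1 and Lep were not listed. Erythroid markers were higher in 5 of 5 tested of 8 (946 to 1438 against 768 to 1392 FPKM). No lymphocyte marker of 8 was listed, and of 6 platelet markers Pf4 alone was. Of 7 mesothelial, 6 Schwann cell and 7 skeletal muscle markers, 1, 4 and 2 were listed, and their sums overlapped between genotypes. The part of these cell types in the endothelial values was not tested.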

How the data were processed

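Poly(A) RNA of mouse myocardium was sequenced from both ends of strand-specific libraries, per the labels' protocols. The submitters' processing notes name cutadapt, HISAT2, StringTie and the build mm10, without versions or settings. The deposited table has a row per transcript and a column per library and does not name its unit. The values were taken as FPKM made by the authors, and as an alternative each library was rescaled to the same sum. All 22157 deposited transcripts reached a group mean of 0.5 FPKM in either genotype, so the list was selected before deposit. Depth is unknown, and precision is that of the spread between libraries.

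Identifiers were matched to GENCODE vM21 (GRCm38): 22107 matched, 21011 with the same version, and FPKM were summed per symbol. Values entered as log2(FPKM + 1). Genes with a group mean of 1 FPKM or more were tested, which all 31 endothelial genes with a listed transcript passed. Genotypes were compared over 10764 genes and 17641 transcripts with limma 3.58.1 in R 4.3.3 (empirical Bayes with trend, no covariate, Benjamini-Hochberg at 0.05), and the share of 1 transcript with an exact permutation test. The script was tested on simulated data. Figures and tables used Python 3.11.15. Promoter windows are those of RefSeq, and motifs were searched on both strands.

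The members and lists were chosen with earlier results of these data known. Values in each library are given for the 8 genes with the smallest p and the most abundant gene of each role, and every other endothelial gene by range or mean. In the other vascular lists the 2 genes with the smallest p are named. Vegfa, Adipoq, Npr3, Myl7 and the transcripts singled out were chosen after their values were seen.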

Additional observations from a re-analysis of the deposited data

Results flagged for a closer look

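In 5 of the 62 sets of 5 libraries (31 genes in 2 genotypes), 1 library lay far from the other 4 by Dixon's criterion at the 95% level, where chance gives about 1 in 20 sets. S1pr1, the sphingosine-1-phosphate receptor, was at 19.14 FPKM in library 241 of the NPRA-/- group, where the other 4 stood at 25.66 to 26.88 FPKM. The other 4 cases were high values of the NPRA+/+ group. The ETS factor gene Erg was at 10.3 FPKM in library 242 and at 3.543 to 5.153 FPKM in the others. The caveolin gene Cav1 was at 29.76 FPKM in library 230 and at 16.06 to 18.51 FPKM in the others. Library 255 held 2 of the cases. Gpihbp1, which anchors lipoprotein lipase, was at 46.16 FPKM there and at 29.32 to 33.95 FPKM in the others, and Rgcc, a marker of heart capillaries, was at 67.1 FPKM there and at 39.76 to 46.4 FPKM in the others.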

How the results depend on the processing

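Over 22 alternatives, 0 endothelial genes gained a call (lowest adjusted p 0.617, in the 6 libraries with Myl7 at 10 FPKM or more), and 610 of 681 log2 differences kept their sign. The 8 genes that kept it in every alternative they were tested in were Pecam1, Cldn5, Tie1, S1pr1, Robo4, Ets1, Edn1 and Nos3; Edn1 was not tested at the floor of 5 FPKM. Differences near 0 and lists read in single libraries cannot be resolved with 5 libraries a group and an unknown depth. No paired analysis was possible because the genotypes share no replicate number. The causes of the changes below were not tested.

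Over all genes, 0 were called with median-of-ratios scaling, quantile normalization or no trend, 2 with the most abundant transcript, and 0 to 2 without 1 library; transcripts called were 3 at a floor of 5 FPKM and 2 to 10 without 1 library. Same sum gave Nrp1 -0.0033 and Fabp4 -0.011. Median-of-ratios scaling gave Ecscr 0.025, Kdr 0.024, Erg 0.0074 and Aqp1 0.033. Quantile normalization gave Ecscr 0.020, Kdr 0.0019, Erg 0.017 and Fabp4 -0.018. The most abundant transcript gave Ecscr 0.013, Emcn 0.023 and Flt1 0.032.

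Leaving out 1 library gave 21 to 28 lower endothelial genes and medians of -0.13 to -0.06. Signs changed in Ecscr (-0.074 to 0.045), Kdr (-0.066 to 0.035), Flt1 (-0.077 to 0.011), Tek (-0.072 to 0.0028), Nrp1 (-0.019 to 0.032), Erg (-0.23 to 0.21), Sox18 (-0.11 to 0.15), Fabp4 (-0.037 to 0.050), Gpihbp1 (-0.11 to 0.049), Aqp1 (-0.031 to 0.023) and Cav1 (-0.038 to 0.18). The difference in the share of Flt1-203 stayed between -4.95 and -1.19 percentage points.

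The division by Myl7 was added after seeing the data. At 10 FPKM or more, 3 genes and 27 transcripts were called, none of the genes endothelial, and values of the other sign were Tek 0.017, Nrp1 -0.056, Sox18 -0.096, Fabp4 -0.018, Aqp1 0.043, Cav1 -0.15 and Rgcc 0.11. Under 10 FPKM, 0 genes and 2 transcripts were called, 13 endothelial genes were lower with a median of 0.032, and values of the other sign were Cdh5 0.11, Icam2 -0.070, Ecscr 0.27, Kdr 0.066, Flt1 0.040, Ptprb 0.030, Eng 0.073, Notch1 0.099, Erg 0.10, Plvap 0.070, Ly6c1 0.00089, Vwf 0.21, Egfl7 0.26 and Mmrn2 0.080. With 2 libraries a group these values rest on little spread.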
